A study of Mus musculus with 16 samples.

Results

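Olanzapine, an antipsychotic drug that increases food intake and body weight, was compared with the control diet in the mouse hypothalamus by RNA sequencing. The libraries of the comparison are set by their treatment labels, 8 of the 16 libraries of the series, 4 of CTRL and 4 of OLZ. All mice were female C57BL/6 and received a diet with 45 kcal% from fat for 12 weeks from 10 weeks of age. CTRL mice 3, 4, 5 and 11 received this diet alone. OLZ mice 13, 14, 17 and 19 received it with olanzapine at 54 mg per kg of diet. Another group, OLZ+MINO, received the same olanzapine diet with minocycline at 0.6 mg/mL in the drinking water. Its 4 libraries entered the statistical fit for the estimate of spread only. Each library is the dissected hypothalamus of one mouse. No mouse on a low fat diet is among these libraries, so both groups carry the effect of the fatty diet. The weight and food intake of these mice are not analysed here.

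The hypothalamus sets hunger and energy use. In its arcuate nucleus, neurons that make Npy and Agrp drive feeding, and neurons that make Pomc restrain it. Leptin from fat tissue acts on both through its receptor Lepr and the transcription factor Stat3, and Socs3 ends that signal. Tanycytes, the glia lining the floor of the third ventricle beside the arcuate nucleus, carry thyroid hormone and nutrients from blood and ventricle into the tissue. Olanzapine itself blocks serotonin, dopamine, histamine, muscarinic and adrenergic receptors.

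The deposited values are whole numbers made from read counts by the authors' scaling and are called scaled counts here. They summed to between 8729065 and 8967125 in CTRL libraries and between 8435016 and 8640807 in OLZ libraries, without overlap, and part of this difference may be set by the scaling, which the sources used here do not state. A gene with a few scaled counts rests on a few reads. Changes are log2 fold changes of OLZ against CTRL on log2(scaled count + 1), which understates the change of low genes. The adjusted p comes from limma over all genes tested, and a gene is said to rise or fall at an adjusted p under 0.3. The study states a false discovery rate under the same number, for genes changed by olanzapine and corrected by added minocycline. Its methods describe a local false discovery rate, which is another measure than the adjusted p used here. At an adjusted p under 0.3 the expected share of false calls is up to 0.3. The groups of 4 cannot give a two-sided exact permutation p below 0.0286, which every pair of groups without overlap reaches.

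Of 15983 genes, 582 passed the threshold (3.64%), 291 that rose (1.82%) and 291 that fell (1.82%). At an adjusted p under 0.05 there were 2 genes, the sodium channel Scn7a and the predicted gene Gm9843, and at an unadjusted p under 0.05 there were 1828. In 433 of the 582 the values of the groups did not overlap, and over all genes this held for 1111 (6.95%), 3.64% higher in OLZ and 3.31% lower. The rises were larger than the falls. Their median log2 fold change was 0.62 (quartiles 0.43 and 1.02), with 75 genes above 1, and that of the falls was -0.41 (quartiles -0.59 and -0.30), with 20 genes below -1. The genes that fell were also more abundant, with a median scaled count of 524 over the 8 libraries, against 152 for the genes that rose and 174 for all genes tested. The median log2 fold change of all genes was 0.0037.

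**Figure D1:**
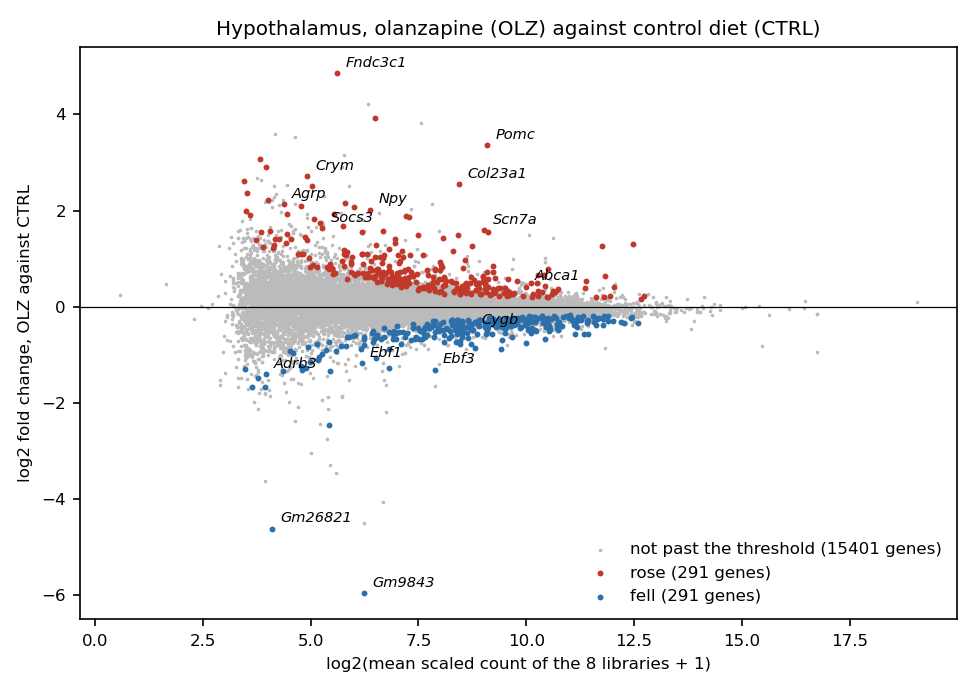
Each point is 1 of 15983 genes, with its mean scaled count over the 8 libraries on the horizontal axis (log2 scale) and its log2 fold change of OLZ against CTRL on the vertical axis. The 291 genes that rose (red) reach 4.86 for Fndc3c1, and the 291 that fell (blue) lie close to 0 at high abundance.

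These counts depended on single libraries. With OLZ mouse 13 left out, 2 genes passed, Scn7a and Gm9843, so that every other call below was lost in that fit. Without mouse 3, 11 or 14 the counts were 35, 37 and 39, and without OLZ mouse 19 there were 184. Without CTRL mouse 5, OLZ mouse 17 or OLZ+MINO mouse 48 they were 987, 928 and 1470. OLZ mouse 13 had the highest OLZ value in 161 of the 291 genes that rose and the lowest in 163 of the 291 that fell. CTRL mouse 11 had the lowest CTRL value in 127 of the former and the highest in 140 of the latter. Of the 39 genes named below by size of change, by p or because the study names them, 38 passed, and 15, 17, 1, 18 and 26 did without mouse 3, 11, 13, 14 and 19, respectively. Values without overlap were a condition for naming a gene by size of change or by p. For those genes the lack of overlap is therefore no separate result.

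**Figure D2:**
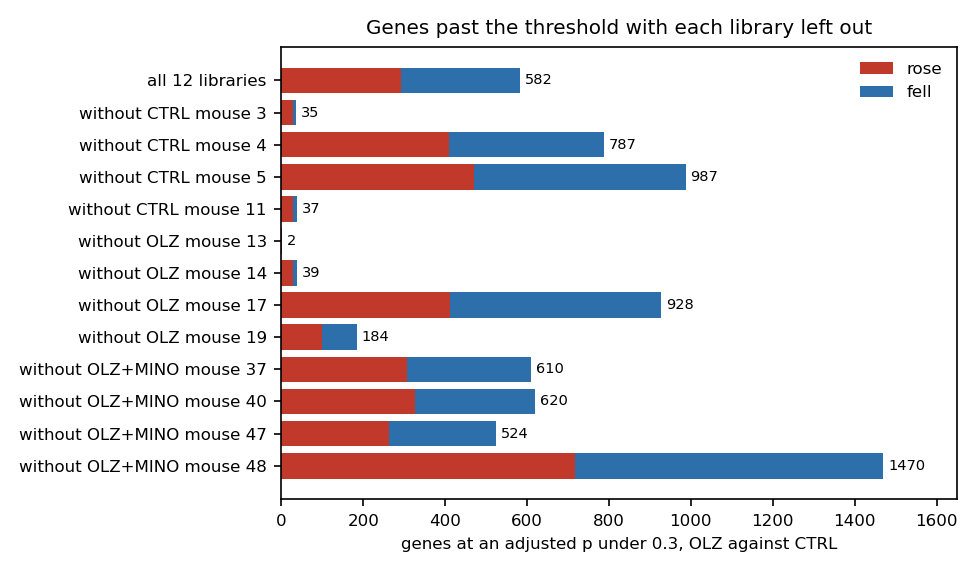
Bars give the number of genes at an adjusted p under 0.3 for OLZ against CTRL with all 12 libraries and with each left out, split into genes that rose (red) and fell (blue). The count runs from 2 without OLZ mouse 13 to 1470 without OLZ+MINO mouse 48.

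Some libraries also held more RNA of genes that mark neighbouring tissue. In CTRL mouse 11 the 9 listed genes of the thalamus summed to 4898 scaled counts, against 2241 to 2900 in the other CTRL mice and 2383 to 2818 in OLZ. The 4 measured genes of the pituitary and pars tuberalis summed to 11 to 20 in CTRL and to 212, 50, 47 and 89 in OLZ mice 13, 14, 17 and 19, so the groups did not overlap. In OLZ mouse 13 most of this was Cga, the alpha subunit of pituitary hormones, which was at 138, 8, 0 and 42 in OLZ and at 2, 0, 0 and 0 in CTRL. In OLZ mice 14 and 17 most of it was the transcription factor Pou1f1, at 37 and 29, which alone of the 4 genes did not overlap between the groups. Prl, the hormone prolactin, was at 14 in OLZ mouse 13 and at 0 to 3 elsewhere. The 12 genes of meningeal fibroblasts summed to 1295 in OLZ mouse 13 and 2121 in OLZ mouse 19, against 401 and 526 in the other OLZ mice and 440 to 561 in CTRL. Genes of the mammillary nuclei, at the posterior end of the hypothalamus, summed to 366 to 831 in CTRL and 185 to 435 in OLZ, and all 8 had negative log2 fold changes (median -0.95) with none past the threshold. Those of the ventromedial nucleus had a median of 1.16 (0.71 without CTRL mouse 11), 5 of 6 positive and none past the threshold. The part of these tissues and of the dissection in the results below was not tested. In whole tissue, more cells of a type and more RNA per cell cannot be told apart.

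**Figure D3:**
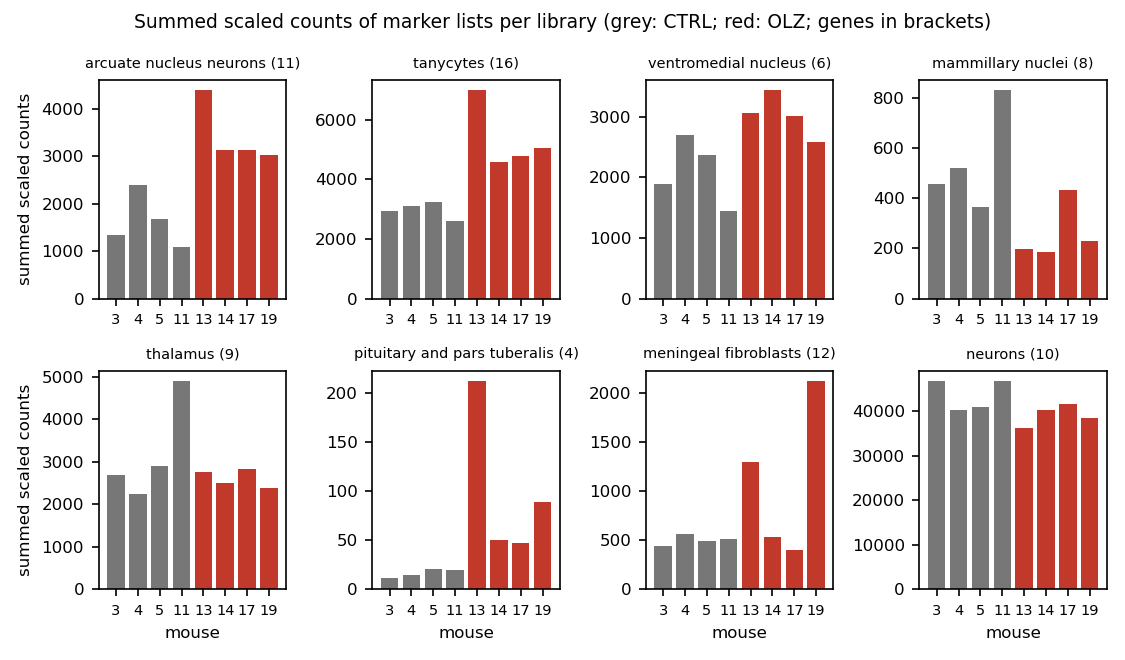
Bars are summed scaled counts of 8 marker lists in each of the 8 libraries (mouse number below; CTRL grey, OLZ red; number of genes in brackets). The arcuate and tanycyte sums of every OLZ mouse exceed those of every CTRL mouse, and the thalamus sum stands out in CTRL mouse 11, the pituitary sum in OLZ mouse 13 and the meningeal sum in OLZ mouse 19.

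Of the feeding peptides 3 rose, Npy and Agrp of the arm that drives feeding and Pomc of the arm that restrains it. Npy and Agrp are 2 of 6 measured orexigenic peptides, beside 1.82% of all genes that rose. The median log2 fold change of the 6 was 1.24, and 0.72 without CTRL mouse 11. Pomc is 1 of 10 anorexigenic peptides (median -0.09, 5 negative), and none of either list fell. Npy (ENSMUSG00000029819), which drives feeding, had scaled counts of 30, 67, 15 and 26 in CTRL mice 3, 4, 5 and 11 and of 205, 108, 94 and 114 in OLZ mice 13, 14, 17 and 19. No OLZ mouse fell into the CTRL range, and the rise was 2.02 (standard error 0.39, adjusted p = 0.0828) as log2 fold change. Agrp (ENSMUSG00000005705), an antagonist of melanocortin receptors made in the same neurons, had 4, 8, 10 and 5 in CTRL and 40, 39, 33 and 19 in OLZ. Its lowest OLZ mouse, 19, was still above all CTRL mice, and the rise was 2.14 on the log2 scale (standard error 0.47, adjusted p = 0.124). Pomc (ENSMUSG00000020660), the precursor of the satiety peptide alpha-MSH, had 48, 605, 69 and 25 in CTRL and 1247, 895, 782 and 682 in OLZ. CTRL mouse 4 lay far above the other CTRL mice and just below the lowest OLZ mouse. Pomc rose by 3.36 on the log2 scale (standard error 0.85, adjusted p = 0.176), and 4.30 without CTRL mouse 4. Without OLZ mouse 13 none of the 3 peptides passed (adjusted p = 0.383 for Npy, 0.467 for Agrp and 0.517 for Pomc), and Agrp and Pomc did not pass once mouse 3, 11 or 14 was left out either.

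The sequences around the transcription start of Npy and Pomc are shown as those of one peptide from each arm that rose, with 250 bases before the start and 50 after it, from RefSeq on GRCm38.p6. Capitals mark CCAAT (bound by the NF-Y complex, to which Nfyb belongs), TATAAA (the TATA box) and AAGGTCA (the core of sites bound by Nr5a receptors, to which Nr5a2 belongs), each read on both strands. The Npy window lies on the plus strand at chr6:49822460-49822759, and the Pomc window on the plus strand at chr12:3954695-3954994.
Npy: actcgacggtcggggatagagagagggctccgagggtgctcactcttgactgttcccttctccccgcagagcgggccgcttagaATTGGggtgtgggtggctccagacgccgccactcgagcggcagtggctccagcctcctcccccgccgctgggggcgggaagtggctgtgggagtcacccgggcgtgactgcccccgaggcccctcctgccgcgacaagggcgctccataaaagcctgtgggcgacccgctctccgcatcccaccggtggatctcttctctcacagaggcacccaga
Pomc: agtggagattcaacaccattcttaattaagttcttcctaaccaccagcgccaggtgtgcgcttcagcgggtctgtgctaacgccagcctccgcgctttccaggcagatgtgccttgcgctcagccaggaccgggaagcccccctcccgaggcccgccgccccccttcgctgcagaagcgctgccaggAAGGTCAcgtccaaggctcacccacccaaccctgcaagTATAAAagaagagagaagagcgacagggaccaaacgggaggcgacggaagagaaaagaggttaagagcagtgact
The Npy window held CCAAT in its reverse complement from base 85 of the 300, and the Pomc window held AAGGTCA from base 188 and TATAAA from base 226. A match is a description of the letters and not a site of binding. CCAAT was in 37.4% of the 14088 windows of tested genes, in 36.6% of the 287 windows of genes that rose and in 35.6% of the 298 of genes that fell. The shares for AAGGTCA were 3.29%, 2.79% and 3.36%, and those for TATAAA 7.39%, 13.9% and 5.03%. Windows were matched by symbol for 221 of the 291 genes that rose and 215 of the 291 that fell, some genes having more than one. Nfyb itself had 175, 195, 181 and 177 in CTRL and 214, 223, 260 and 203 in OLZ, without overlap but short of the threshold (log2 fold change 0.30, standard error 0.10, adjusted p = 0.308).

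Of 11 measured genes listed for arcuate neurons, 6 rose, beside 1.82% of all genes, none fell and 10 were positive (median 1.64). Besides the 3 peptides these were Tbx3, a transcription factor of the developing and adult arcuate nucleus (36, 79, 95 and 50 in CTRL, 446, 180, 197 and 157 in OLZ, log2 fold change 1.86), Corin, a protease that acts on peptide hormones (8, 14, 12 and 2 against 38, 35, 19 and 39, 1.93), and Tac2, the neurokinin B precursor of arcuate neurons that act on reproduction (103, 112, 84 and 86 against 193, 131, 148 and 157, 0.70). None of the 3 overlapped between the groups. The other feeding peptides did not pass. Cartpt, a satiety peptide, had 365, 652, 547 and 298 in CTRL and 678, 575, 887 and 883 in OLZ (log2 fold change 0.74, adjusted p = 0.459). Pmch, an orexigenic peptide of the lateral hypothalamus, had 3904, 4241, 5697 and 4011 in CTRL and 981, 2575, 3069 and 4455 in OLZ (-0.86, adjusted p = 0.602), and Hcrt, the orexin precursor, ranged from 230 to 880 in CTRL and from 76 to 723 in OLZ (-0.89, adjusted p = 0.692). The lateral peptides thus varied widely, with OLZ mouse 13 lowest for both. Leaving out OLZ mouse 13 left 0 of the 6 arcuate genes past the threshold, and leaving out mouse 3, 11 or 14 left 2 each. Leaving out OLZ+MINO mouse 48 gave 10. The median log2 fold change of the list, in which OLZ+MINO libraries have no part, lay between 1.39 and 1.99 with a CTRL or OLZ library left out. Without CTRL mouse 11, OLZ mouse 13 and OLZ mouse 19 together it was 1.15, with 10 of 11 positive and none past the threshold.

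**Figure D4:**
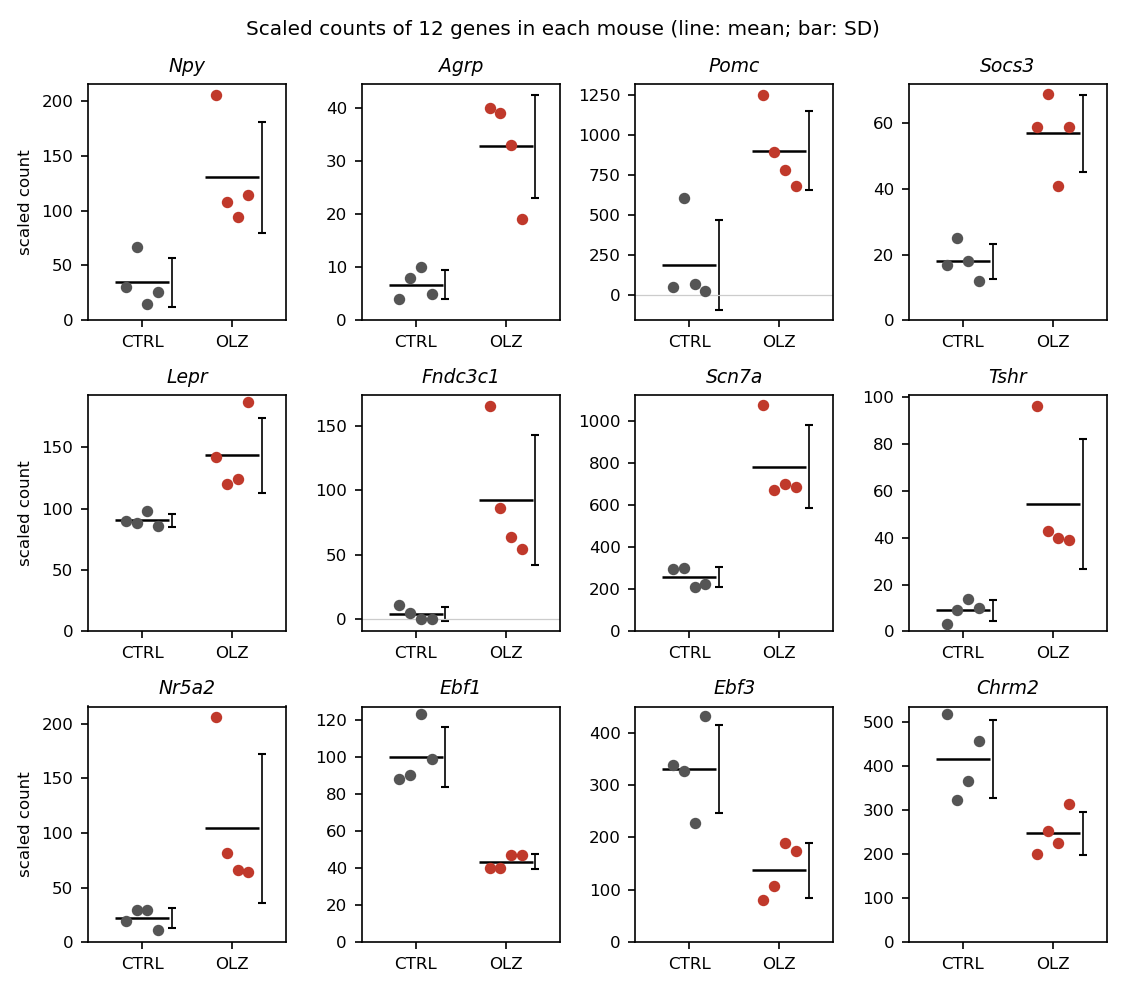
Points are the scaled counts of 12 genes in each CTRL mouse (grey) and each OLZ mouse (red), with the group mean (line) and SD (bar), n = 4 per group. None of the 12 genes overlaps between the groups, OLZ mouse 13 is far above the other OLZ mice for Npy, Fndc3c1, Scn7a, Tshr and Nr5a2, and CTRL mouse 4 is the high CTRL value of Pomc.

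Several genes of leptin signalling rose. Socs3 (ENSMUSG00000053113), the inhibitor that Stat3 induces, had 17, 25, 18 and 12 in CTRL and 59, 69, 41 and 59 in OLZ, so that every OLZ mouse was above every CTRL mouse (log2 fold change 1.63, standard error 0.34, adjusted p = 0.112). Stat3 had 564, 718, 671 and 497 in CTRL and 959, 879, 815 and 964 in OLZ (0.57, standard error 0.13, adjusted p = 0.133). Lepr, the leptin receptor, had 90, 88, 98 and 86 in CTRL and 142, 120, 124 and 187 in OLZ, with OLZ mouse 19 highest (0.64, standard error 0.21, adjusted p = 0.29). These are 3 of the 12 listed genes of leptin, ghrelin and insulin signalling, beside 1.82% of all genes that rose. None of the 12 fell (median 0.22). Insr, the insulin receptor, had a log2 fold change of 0.05. Ghsr, the ghrelin receptor, was at 35, 90, 61 and 35 in CTRL and 243, 174, 56 and 75 in OLZ (1.16, adjusted p = 0.32), with overlap. Leaving out mouse 3, 11, 13 or 14 left 0 of the 3 past the threshold, and Lepr also did not pass without CTRL mouse 4, OLZ mouse 19 or OLZ+MINO mouse 37. Without OLZ+MINO mouse 48, 6 of the 12 rose.

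The window of Socs3, on the minus strand at chr11:117969317-117969616 (GRCm38.p6, RefSeq), is shown because it holds the spaced palindrome TTCNNNGAA that STAT factors recognise, in capitals from base 97.
Socs3: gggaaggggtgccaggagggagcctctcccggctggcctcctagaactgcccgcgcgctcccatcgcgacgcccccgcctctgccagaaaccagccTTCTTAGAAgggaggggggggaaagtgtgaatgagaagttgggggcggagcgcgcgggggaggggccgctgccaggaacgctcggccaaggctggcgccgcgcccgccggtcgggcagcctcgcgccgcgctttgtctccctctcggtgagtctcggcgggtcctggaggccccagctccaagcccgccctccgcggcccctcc
The palindrome was in 6.82% of all windows, in 7.32% of those of genes that rose and in 6.71% of those of genes that fell.

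Among 14 measured receptors of feeding peptides only Npy1r, a receptor for Npy, passed, beside 3.64% of all genes. Its values were 104, 212, 124 and 110 in CTRL and 265, 226, 198 and 172 in OLZ, with CTRL mouse 4 inside the OLZ range (log2 fold change 0.69, adjusted p = 0.225). It did not pass once mouse 3, 11, 13 or 14 was left out. The melanocortin receptors, on which the products of Pomc and Agrp compete, had log2 fold changes of 0.86 for Mc3r (adjusted p = 0.372) and 0.84 for Mc4r (adjusted p = 0.512). The median of the 14 was 0.43, with 11 positive, and 0.29 without CTRL mouse 11.

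Few genes of the receptor families that olanzapine blocks passed the threshold. The lists also hold genes of dopamine synthesis and transport, histamine enzymes, and receptors of these families that the drug need not bind. Drd3, Drd4, Htr3a and Adra1d had no values here. None of 12 serotonin receptors and none of 10 genes of dopamine receptors, synthesis and transport passed. Their medians were -0.03 and -0.06, and lay between -0.20 and 0.04 and between -0.13 and 0.01 with 1 library left out. These counts also depended on the fit. Without CTRL mouse 4, CTRL mouse 5, OLZ+MINO mouse 37 or OLZ+MINO mouse 48, 1 serotonin receptor fell, and without OLZ mouse 17, 2 did. Without OLZ+MINO mouse 48, 1 dopamine gene rose. With only CTRL and OLZ in the fit, 1 serotonin receptor and 2 dopamine genes passed. Htr2c, the serotonin receptor most tied to feeding, had 869, 584, 743 and 1076 in CTRL and 411, 504, 646 and 657 in OLZ, with some overlap and an adjusted p of 0.307 just short of the threshold (log2 fold change -0.55). Htr2a had a log2 fold change of 0.25 (adjusted p = 0.561), Drd2 one of -0.52 (adjusted p = 0.571) and the histamine receptor Hrh1 one of 0.12 (adjusted p = 0.844). In the other lists 2 muscarinic receptors and 1 adrenergic receptor fell. Chrm2 had 519, 322, 366 and 456 in CTRL and 200, 252, 225 and 313 in OLZ, where the highest OLZ mouse came close to the lowest CTRL mouse (-0.74, standard error 0.16, adjusted p = 0.124). Chrm3 had 139, 114, 159 and 168 against 97, 75, 123 and 72, with OLZ mouse 17 above CTRL mouse 4 (-0.67, adjusted p = 0.255). Adrb3, better known from fat cells, was low throughout, at 27, 26, 19 and 14 in CTRL and 10, 5, 6 and 9 in OLZ (-1.40, standard error 0.40, adjusted p = 0.223). These are 2 of 10 histamine and muscarinic genes and 1 of 8 adrenergic receptors, beside 1.82% of all genes that fell. None of the 3 passed once mouse 3, 11, 13 or 14 was left out, and Chrm3 and Adrb3 not without OLZ mouse 19.

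The tanycyte list held the most genes that rose, 11 of 16 measured, beside 1.82% of all genes, none falling (median log2 fold change 1.38). The list was chosen with earlier results of these data known and holds several of the genes named for size of change or p. Its count is therefore a description and no independent support. Scn7a (ENSMUSG00000034810), a sodium channel found in glia, was at 298, 300, 209 and 223 in CTRL and at 1077, 670, 699 and 686 in OLZ. The lowest OLZ mouse held more than every CTRL mouse by a wide margin, a difference of 1.59 on the log2 scale (standard error 0.20, adjusted p = 0.013). It is the only named gene that passed the threshold in every fit that left out a library (adjusted p at most 0.0775). Fndc3c1 (ENSMUSG00000033737), a fibronectin domain protein, had 11, 5, 0 and 0 in CTRL and 165, 86, 64 and 54 in OLZ. It was the gene with the largest rise, 4.86 with the pseudocount of 1 (standard error 0.86, adjusted p = 0.071), a value that rests on the CTRL mice near 0 and was 6.59 with a pseudocount of 0.1. Col23a1, a membrane collagen, had 87, 150, 168 and 35 in CTRL and 907, 406, 480 and 532 in OLZ (2.55, adjusted p = 0.0742). Gpr50, a relative of the melatonin receptors, had 44, 93, 110 and 27 against 313, 169, 225 and 205 (1.89, adjusted p = 0.218). Frzb, a secreted Wnt inhibitor, had 32, 52, 33 and 27 against 157, 87, 113 and 79 (1.56, adjusted p = 0.071). All 5 were without overlap, as the rule for naming them required, and OLZ mouse 13 was the highest mouse for each.

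The structural genes of the tanycyte list moved less. Nes, the filament of neural precursors and tanycytes, had 38, 99, 99 and 38 in CTRL and 251, 84, 125 and 159 in OLZ, where OLZ mouse 14 overlapped with CTRL (log2 fold change 1.21). Vim, another intermediate filament, had 223, 258, 284 and 159 against 364, 295, 308 and 354 (0.54). Vcan, a matrix proteoglycan, had 458, 468, 377 and 364 against 615, 535, 538 and 492 (0.39). Rax, a transcription factor that defines tanycytes, had 15, 8, 21 and 4 in CTRL and 87, 31, 32 and 34 in OLZ and did not pass although the groups did not overlap (1.92, adjusted p = 0.354). Without OLZ mouse 13, 1 gene of the list rose, and without mouse 3, 11 or 14, 5 each, and without OLZ mouse 19, 6. The median lay between 1.11 and 1.56 over the fits that leave out a CTRL or OLZ library. Without CTRL mouse 11, OLZ mouse 13 and OLZ mouse 19 together the median was 0.97, all 16 were positive and none passed.

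Thyroid hormone genes shared several of these members. Of 9 measured, 5 rose, beside 1.82% of all genes, and none fell (median 0.49). Tshr (ENSMUSG00000020963), the receptor for thyrotropin, had 3, 9, 14 and 10 in CTRL and 96, 43, 40 and 39 in OLZ, where mouse 13 stood apart and the other OLZ mice lay together (log2 fold change 2.51, standard error 0.54, adjusted p = 0.116). Crym, which binds thyroid hormone in the cytosol, had 1, 18, 7 and 10 in CTRL and 60, 48, 48 and 42 in OLZ (2.72, adjusted p = 0.218). Neither overlapped between the groups, as the rule for naming them required. Dio2, the deiodinase that makes the active hormone, had 85, 82, 73 and 110 in CTRL and 304, 124, 144 and 147 in OLZ (0.95, adjusted p = 0.291), and Thrb, a nuclear receptor for it, had 372, 445, 444 and 334 against 680, 584, 517 and 470 (0.49, adjusted p = 0.262). Crym, Dio2 and other members are also in the tanycyte list, so the counts of both lists are not separate. Trh, the hypothalamic releasing hormone, had 754, 523, 803 and 155 in CTRL and 255, 434, 305 and 504 in OLZ (-0.38, adjusted p = 0.889). Pou1f1, a pituitary transcription factor, rose from 8, 11, 10 and 12 to 33, 37, 29 and 26 (1.52, adjusted p = 0.0828), and is a member of the pituitary list summed above. Its values in OLZ mice 14 and 17, where Cga was at 8 and 0, were close to those in OLZ mice 13 and 19. Whether pituitary tissue had a part in its rise was not tested. Of the 5 thyroid hormone genes none passed without OLZ mouse 13, 1 passed without CTRL mouse 3 or OLZ mouse 14, and 2 without CTRL mouse 11 or OLZ mouse 19.

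**Figure D5:**
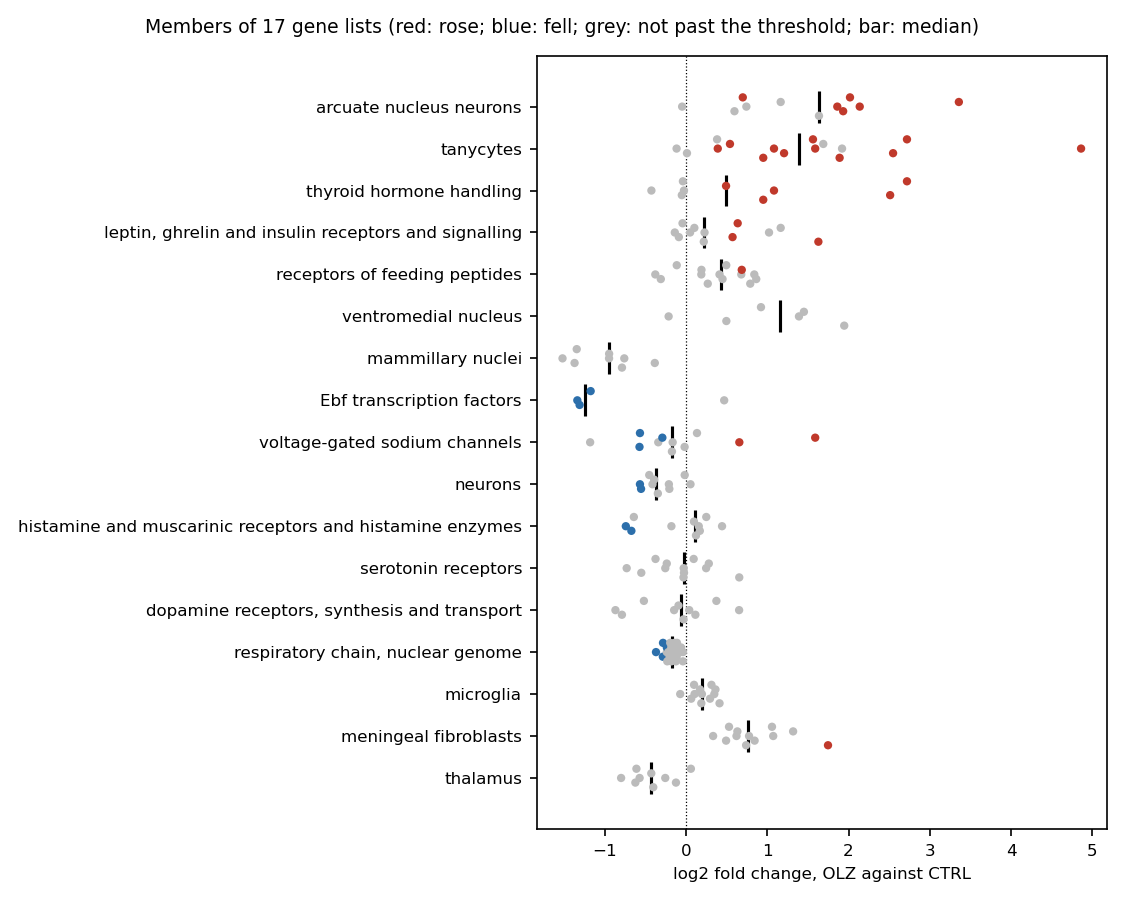
Points are the log2 fold changes of OLZ against CTRL of the members of 17 gene lists, red where the gene rose, blue where it fell and grey where it did not pass the threshold, with the list's median as a bar. Arcuate and tanycyte genes lie mainly to the right of 0 (medians 1.64 and 1.38). Mammillary genes and 3 of 4 Ebf genes lie to the left (list medians -0.95 and -1.24), and serotonin and dopamine genes around 0.

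Transcription factors stood in both directions. Nr5a2 (ENSMUSG00000026398), an orphan nuclear receptor of lipid and steroid metabolism, had 20, 30, 30 and 11 in CTRL and 206, 82, 66 and 64 in OLZ, where mouse 13 stood apart (log2 fold change 2.07, standard error 0.41, adjusted p = 0.0828). Sox3, a factor of neural progenitors, had 5, 7, 1 and 7 against 18, 41, 19 and 22 (2.23, adjusted p = 0.164), and Vgll3, a cofactor of TEAD factors, 10, 11, 8 and 8 against 48, 29, 52 and 45 (2.10, adjusted p = 0.124). For both, every OLZ mouse exceeded every CTRL mouse, as the rule for naming them required. The opposite was seen in most of the Ebf family, factors of neuronal differentiation. Of its 4 members 3 fell (median -1.24), beside 1.82% of all genes. The remaining member was positive (log2 fold change 0.47). It did not pass with all libraries and rose without CTRL mouse 5. Ebf1 (ENSMUSG00000057098) had 88, 90, 123 and 99 in CTRL and 40, 40, 47 and 47 in OLZ, tight in both groups (-1.17, standard error 0.21, adjusted p = 0.071). Ebf3 had 338, 326, 228 and 432 against 80, 107, 189 and 174 (-1.31, adjusted p = 0.206) and Ebf2 46, 43, 47 and 111 against 27, 11, 29 and 26 (-1.34, adjusted p = 0.223). The 111 belongs to CTRL mouse 11, and without that mouse the log2 fold change of Ebf2 was -1.02 and short of the threshold. Onecut2, another neuronal factor, had 582, 564, 460 and 518 against 230, 347, 379 and 303 (-0.77, adjusted p = 0.1). Ebf1, Nr5a2 and Tbx3 lost their call only without OLZ mouse 13, where their adjusted p was 0.369.

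Several other named genes that rose encode secreted or binding proteins. Crabp1, which binds retinoic acid, had 17, 20, 34 and 8 in CTRL and 151, 95, 50 and 64 in OLZ (log2 fold change 2.17, adjusted p = 0.112), the only one of 15 retinoid genes to pass. Islr, a leucine-rich repeat protein of connective tissue, had 26, 12, 18 and 12 against 112, 43, 34 and 105 (1.93, adjusted p = 0.109). The high OLZ mice of Islr, 13 and 19, are those with the high meningeal sums, and its log2 fold change without them and CTRL mouse 11 was 1.06. Fmod, a matrix protein on the meningeal list, had 12, 18, 7 and 11 in CTRL and 24, 19, 36 and 162 in OLZ (1.75, adjusted p = 0.258), and 1.09 without OLZ mouse 19, which no longer passed. All 12 meningeal genes had positive log2 fold changes (median 0.76), and Fmod was the one past the threshold. The median was 0.39 with 10 of 12 positive without OLZ mouse 19, 1.27 without OLZ mouse 17, and -0.12 with 5 of 12 positive without CTRL mouse 11, OLZ mouse 13 and OLZ mouse 19 together.

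The remaining genes with the largest falls were of mixed function. Ntsr1, a neurotensin receptor, had 160, 146, 153 and 115 in CTRL and 51, 90, 87 and 87 in OLZ (log2 fold change -0.88, adjusted p = 0.143). Rgs8, which shortens G protein signals, had 894, 812, 690 and 1144 against 346, 498, 556 and 528 (-0.87, adjusted p = 0.144). Sema3f, an axon guidance cue, had 93, 67, 94 and 114 against 50, 47, 40 and 60 (-0.88, adjusted p = 0.136). In each of them OLZ lay below CTRL without overlap, as the rule for naming them required. Cbln2, an organiser of synapses, had 503, 322, 422 and 524 against 189, 274, 272 and 298 (-0.77, adjusted p = 0.223). The others, with log2 fold changes between -1.27 and -0.77, were Pappa2, a protease that frees insulin-like growth factors, Acat3, an acetyl-CoA acetyltransferase, Mmel1, a relative of neprilysin, Ttpa, the carrier of vitamin E, Ankrd9 and Prdm9, a histone methyltransferase of meiosis. They were low genes, the lowest CTRL mean being 38.8 scaled counts for Mmel1, and Acat3 had -0.57 without CTRL mouse 11, OLZ mouse 13 and OLZ mouse 19.

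Several sodium channel and neurofilament genes fell. Among 11 sodium channel genes 3 fell, such as Scn1a, and Scn7a and Scn9a rose. Of all genes 1.82% fell and 1.82% rose. Scn1a, the channel of fast-spiking interneurons, had 2755, 2536, 2138 and 3195 in CTRL and 1259, 1745, 2318 and 1944 in OLZ, with OLZ mouse 17 above CTRL mouse 5 (log2 fold change -0.57, adjusted p = 0.275). Scn9a, a channel also of sensory neurons, had 881, 951, 1260 and 747 against 1790, 1417, 1427 and 1346 (0.66, adjusted p = 0.274). Of 10 general neuronal genes the neurofilaments Nefl (-0.57, adjusted p = 0.218) and Nefm (-0.55, adjusted p = 0.284) fell, and 9 of 10 were negative with a median of -0.37. Nefl had 3527, 3131, 2487 and 4011 in CTRL and 1694, 2265, 2695 and 2209 in OLZ. None of these passed once mouse 3, 11, 13, 14 or 19 was left out except Scn7a, and Scn9a and Nefm also did not pass without CTRL mouse 4. Without OLZ mouse 17, CTRL mouse 5 or OLZ+MINO mouse 48 the number of the 10 neuronal genes that fell was 5, 6 and 7.

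Further families were chosen after their values were seen. Of 76 potassium channel genes, 7 fell and none rose, beside 1.82% of all genes that fell, with 30 positive and 46 negative (median -0.15). Kcna2, a channel of axons, had 920, 865, 659 and 966 in CTRL and 429, 541, 635 and 488 in OLZ (log2 fold change -0.70, adjusted p = 0.157), and Kcna6 had 1133, 1080, 1082 and 1232 against 782, 950, 819 and 941 (-0.38, adjusted p = 0.112), both without overlap. In the machinery of vesicle release Nsf, Napb and Napg, which take SNARE complexes apart, fell by 0.34, 0.37 and 0.24 on the log2 scale, 3 of 4 genes of that family. Vamp1, a SNARE of synaptic vesicles, had 1353, 1190, 933 and 1656 against 522, 708, 896 and 903 (-0.76, adjusted p = 0.199). Of 16 synaptotagmins 2 fell, and 12 were negative (median -0.20). One was Syt2, a calcium sensor of fast release, which had 617, 537, 453 and 677 against 215, 313, 304 and 461 (-0.86, adjusted p = 0.124), with OLZ mouse 19 just inside the CTRL range. Of 14 GABA-A receptor subunits 2 fell, among them Gabrb2 (-0.51), with 7 positive and 7 negative (median 0.03). Of 271 Slc transporters 9 fell and 4 rose, with 135 positive and 136 negative. One that fell was Slc12a5, the chloride exporter of mature neurons (4393, 4567, 4560 and 4615 against 3481, 3437, 3834 and 3940, -0.31, adjusted p = 0.101). CTRL mouse 11 was the highest mouse in each gene named here but Napg, and OLZ mouse 13 the lowest in each but Slc12a5.

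Nuclear genes of the respiratory chain had small differences in one direction. The 25 listed genes had log2 fold changes between -0.37 and -0.04 (median -0.17). Of them 4 fell, namely Cox5a, Ndufb8, Uqcrc1 and Atp5b, beside 1.82% of all genes. Uqcrc1, a core subunit of complex III, had 1164, 1160, 1099 and 1120 in CTRL and 912, 939, 1008 and 877 in OLZ (-0.28, standard error 0.07, adjusted p = 0.196), and Atp5b, of ATP synthase, had 6320, 5840, 5532 and 6301 against 4909, 4931, 5398 and 5115 (-0.24, adjusted p = 0.243). Both were without overlap, though the size was small. None of the 13 genes of the mitochondrial genome passed (median -0.01). No nuclear gene passed once mouse 3, 11, 13 or 14 was left out, and 1 did without OLZ mouse 19. Without CTRL mouse 5 the number was 11, and without OLZ mouse 17 or OLZ+MINO mouse 48 it was 7.

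In lipid handling 2 of 8 genes of sterol export and lipoproteins rose and 1 fell, and 1 of 14 genes of sterol synthesis fell. Of all genes 1.82% rose and 1.82% fell. Abca1, the cholesterol exporter, had 922, 921, 839 and 819 in CTRL and 1241, 1156, 1114 and 1152 in OLZ, with little spread (log2 fold change 0.41, standard error 0.07, adjusted p = 0.071). Srebf1, a transcription factor of lipid synthesis, had 571, 688, 692 and 634 against 848, 775, 756 and 783 (0.29, adjusted p = 0.196). Abcg4, a sterol exporter of neurons, went the other way (-0.30, adjusted p = 0.264). Of the 14 synthesis genes 12 were negative (median -0.11), and only Fdps, an enzyme of the mevalonate pathway, fell (341, 336, 339 and 391 against 286, 291, 287 and 220, -0.38, adjusted p = 0.242). Srebf1, Abcg4 and Fdps did not pass once mouse 3, 11, 13, 14 or 19 was left out, and Abcg4 also not without OLZ mouse 17.

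In the lists of immune genes and astrocytes a few genes rose and none fell, beside 1.82% of all genes that rose. None of 12 microglial genes passed (median 0.19). Tlr2, a receptor for bacterial lipoproteins, had 26, 27, 19 and 18 in CTRL and 40, 54, 33 and 40 in OLZ (log2 fold change 0.86, adjusted p = 0.243), and Tnfrsf11b, a decoy receptor of the TNF family, had 10, 24, 18 and 17 against 33, 28, 45 and 43 (1.10, adjusted p = 0.223). Il6st, the shared receptor chain of the interleukin 6 family, which signals to Stat3, had 1431, 1551, 1346 and 1276 against 1773, 1802, 1773 and 1627 (0.32, adjusted p = 0.144). These were 3 of 14 cytokine and Toll-like receptor genes and had no overlap. Of 11 astrocyte genes Gfap and Sox9 rose. Gfap, a filament of reactive astrocytes and of tanycytes, had 961, 1437, 932 and 936 in CTRL and 1522, 2534, 1810 and 1560 in OLZ (0.79, adjusted p = 0.157). Of 10 interferon and MHC class I genes Samd9l (0.78) and Ifit1 (0.95) rose, in Ifit1 with overlap. Once mouse 3, 11, 13 or 14 was left out none of these 7 genes passed, and without OLZ mouse 19 2 of them did, Il6st and Gfap. Sox9 also did not pass without CTRL mouse 4, CTRL mouse 5 or OLZ mouse 17, and Ifit1 not without CTRL mouse 5 or OLZ+MINO mouse 47.

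Of 8 receptors of prolactin and gonadal steroids 1 rose, beside 1.82% of all genes, and none fell. It was Esr1, the estrogen receptor, which had 194, 244, 240 and 114 in CTRL and 637, 361, 363 and 380 in OLZ (log2 fold change 1.15, adjusted p = 0.219). Of 9 genes of the glucocorticoid receptor and its targets 1 rose, Nr3c1, the receptor itself, which had 1382, 1411, 1324 and 1320 against 1665, 1421, 1594 and 1575 (0.20, adjusted p = 0.283), where OLZ mouse 14 lay barely above CTRL. Ghr, the growth hormone receptor, chosen after its values were seen, had 184, 230, 147 and 201 against 371, 339, 317 and 308 (0.82, adjusted p = 0.176). Among Wnt genes Fzd5, a receptor, rose beside Frzb and Lgr6, from 126, 155, 230 and 77 to 566, 288, 351 and 333 (1.44, adjusted p = 0.158). Of 12 Notch genes the receptor Notch2 rose, from 445, 398, 403 and 401 to 771, 602, 621 and 722 (0.71, standard error 0.11, adjusted p = 0.0586). Esr1 did not pass once mouse 3, 11, 13, 14 or 19 was left out, and Notch2 not without OLZ mouse 13. Nr3c1 lost its call in 8 of the 12 fits that leave out a library, those of Esr1 and those without CTRL mouse 5, OLZ mouse 17 or OLZ+MINO mouse 47.

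The genes with the smallest p outside these groups were not among the 15 largest rises or the 15 largest falls named by size. Cygb, a globin that binds oxygen, had 512, 488, 484 and 539 in CTRL and 336, 344, 396 and 363 in OLZ (log2 fold change -0.49, standard error 0.08, adjusted p = 0.0586). Adcy7, an adenylate cyclase, had 367, 292, 355 and 360 against 185, 191, 203 and 239 (-0.75, adjusted p = 0.071). Sft2d2, a protein of vesicle transport, had 256, 282, 295 and 249 against 581, 419, 416 and 478 (0.80, adjusted p = 0.0586). Anxa2, a calcium-dependent membrane protein, had 49, 85, 60 and 71 against 166, 123, 121 and 147 (1.08, adjusted p = 0.071). The groups were apart in all of them, as the rule for naming them required. Each lost its call without OLZ mouse 13 only, at an adjusted p of 0.369.

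Of the 49 lists, 22 had no member that rose or fell in the fit of all libraries. They included the core clock (14 measured, median 0.15), immediate early genes (11, median -0.05), endoplasmic reticulum stress (12, median -0.04), AMPK subunits and kinases (8, median 0.00), prohormone processing (11, median 0.10), oligodendrocytes (10, median -0.26) and the cilia of ependymal cells (9, median 0.34). Without CTRL mouse 11 the median of the immediate early genes was 0.36, with 9 of 11 positive, and that of the oligodendrocyte genes -0.06. Over all lists, 42 of 464 distinct measured members rose and 18 fell, beside 1.82% of all genes in each direction. These lists were chosen with earlier results of these data known, so the counts cannot be read as enrichment. Lists that share genes are not independent.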

How the data were processed

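Hypothalamic total RNA was made into TruSeq libraries and sequenced. Per the labels and the methods of the study, Bowtie2 aligned the reads to the transcriptome, RSEM gave reads per gene and limma was the authors' own test, and mm9 stands in the submitters' processing notes. The sources used here state no versions and no normalization. The deposited values are a scaled signal, rounded by the authors to whole numbers, and not raw counts, since the CTRL libraries differ between the 2 deposited tables by a constant factor of 1.0048 to 1.00615. No count test was run. The authors also deposited signed fold changes, treated here as a score, and local false discovery rates, classed here with p-values and q-values, both from their own comparison, and neither was used.

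Libraries were grouped by their labels. From the scaled signal, log2(value + 1) was fitted by lmFit and eBayes of limma 3.58.1 (R 4.3.3), allowing an intensity trend, over CTRL, OLZ and OLZ+MINO, n = 4 each. A minimum group mean of 1 removed 0 of 15983 genes. P-values were adjusted by the method of Benjamini and Hochberg. The script was tested on simulated data. The rule for named genes took the 15 largest rises and the 15 largest falls among genes past the threshold without overlap, with a mean of at least 20 in the higher group and a symbol that is neither a predicted gene nor one of 23 turned into dates, the 10 smallest p, Npy, Agrp, Nr5a2 and Nfyb, and members of 49 lists. The comparison, the members and the lists were chosen with earlier results of these data known. Promoter windows come from RefSeq on GRCm38.p6 and were not used in any test. Labels name separate mice, so p-values measure the spread between mice. Alternatives were quantile normalization, trimmed mean of M values factors, a pseudocount of 0.1, no filter, a minimum mean of 50, no intensity trend, only CTRL and OLZ, array quality weights, a threshold of 0.05 and each library left out. A few measured genes count among the list members and are not reported here by name.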

Additional observations from a re-analysis of the deposited data

Results flagged for a closer look

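In 176 groups of 4 libraries (39 named genes and 49 lists in each of CTRL and OLZ), 15 held a library far from the other 3 by Dixon's test. The test took scaled counts for genes and mean log2 levels for lists. A flag on scaled counts need not hold on the log2 scale used for the fold changes. Chance alone flags about 1 in 20 groups of normally distributed values. The named genes were selected and their scaled counts can be skewed, so that rate is only a rough guide. OLZ mouse 13 stood apart for Tshr (96 scaled counts), Nr5a2 (206), Tbx3 (446), Scn7a (1077) and Ntsr1 (51, the low value), for the mean log2 level of the thyroid hormone genes (8.24) and for that of the mitochondrial genome (12.66, the low value). CTRL mouse 11 stood apart for Ebf2 (111) and for the mean log2 level of the genes of the thalamus (8.30), the mammillary nuclei (6.08) and oligodendrocyte precursors (8.70). CTRL mouse 4 stood apart for Pomc (605) and Adcy7 (292, the low value), CTRL mouse 3 for Notch2 (445) and OLZ mouse 14 for Ebf2 (11, the low value).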

How the results depend on the processing

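The number of genes past the threshold, 582, was 193 without the intensity trend, 1558 with only CTRL and OLZ in the fit, 1652 with array quality weights and 2 at a threshold of 0.05, and ranged from 2 to 1470 with 1 library left out. It stayed within a factor of 1.5 under quantile normalization (507), trimmed mean of M values factors (571), a pseudocount of 0.1 (553), no filter (582) and a minimum mean of 50 (732 of 12149 genes). Of the 39 genes named by rule, 38 passed. This number was 22 with a minimum mean of 50, where the other named genes were not tested, and 1 to 39 with 1 library left out. Of the list members, 60 passed, and 27 did without the trend, 124 with only CTRL and OLZ, 118 with array quality weights and 1 to 108 with 1 library left out. With 2 combinations chosen after the data were seen, CTRL mouse 5 and OLZ+MINO mouse 48 left out (the lowest quality weights) gave 2116 genes and 152 list members, and CTRL mouse 11, OLZ mouse 13 and OLZ mouse 19 left out (the neighbouring tissue genes) gave 1 gene, 0 named genes and 0 list members by limma, with 679 genes at an unadjusted p under 0.05. No named gene past the threshold changed direction under these alternatives. These 38 genes were without overlap between the groups, so leaving out libraries could not reverse their direction and is no test of it. The cause of these shifts was not tested. No paired analysis was possible because the mouse numbers are not shared between the groups. Depth limits the low genes: Agrp and Crym rest on at most 18 scaled counts per CTRL library.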

Other observations

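Among predicted genes, chosen after their values were seen, Gm9843 had 167, 134, 119 and 149 scaled counts in CTRL and 0, 0, 0 and 26 in OLZ, the other gene at an adjusted p under 0.05 (0.0401), and Gm26821 had 56, 48, 21 and 5 in CTRL and is listed at 0 in every OLZ library (adjusted p = 0.164). No fold is given for either, since it would rest on the value added to 0.

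Another set of predicted genes, chosen in the same way, rose together. Gm10800 had 4431, 5693, 1403 and 2648 in CTRL and 10209, 6712, 7189 and 7156 in OLZ (log2 fold change 1.31, adjusted p = 0.218). Gm10801, Gm10717, Gm10719, Gm10722 and Gm21738 rose as well, but 35.8% to 67.8% of the 31-base words of the annotated transcripts of the 6 genes recur in at least 1 of the others, so reads cannot be assigned to them separately and they count as 1 signal.

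Axonemal dynein heavy chains, the motors of motile cilia, also chosen after their values were seen, had 11 of 13 positive log2 fold changes. Of them Dnah7b, Dnah8, Dnah9 and Dnah11 rose, beside 1.82% of all genes. Dnah7b had 357, 484, 471 and 474 in CTRL and 634, 577, 593 and 650 in OLZ (0.47, adjusted p = 0.112), without overlap. Of the 9 listed genes of ependymal cilia none passed. Dlk1, an imprinted gene, had 688, 708, 890 and 598 in CTRL and 1084, 1141, 845 and 1084 in OLZ (0.53, adjusted p = 0.292), with CTRL mouse 5 inside the OLZ range. Mki67, a marker of dividing cells, had 6, 3, 15 and 4 against 30, 17, 15 and 18 (1.56, adjusted p = 0.29), with a tie between CTRL mouse 5 and OLZ mouse 17.

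Collagens had 29 of 40 positive log2 fold changes (median 0.36), with Col23a1, Col5a2 and Col4a5 rising, and cytosolic ribosomal protein genes 62 of 75 (median 0.11), with 3 rising and none falling, beside 1.82% of all genes that rose. The collagen values stand beside the meningeal sums of OLZ mice 13 and 19, whose part in them was not tested.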
